A study of Homo sapiens with 12 samples.

Results

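MALME-3M is an established human melanoma cell line, and its answer to interferon gamma (IFN-γ) after 24 h was read from 6 of the 12 RNA libraries of the series. The 6 were chosen by their label alone: all libraries labelled as this line, 3 from cells treated with IFN-γ and 3 from untreated cells. The treated cells received 200 ng/mL IFN-γ for 24 h, beginning when they were seeded, and every culture carried the unmodified genotype that the labels call WT. The other 6 libraries are the same design in a different melanoma line, SK-MEL-5, at 150 ng/mL and in another culture medium. The labels describe triplicate wells and give no replicate numbers, so p-values measure the spread between libraries, which may be technical. One line stands for 1 tumour here, and no other dose or time was measured.

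IFN-γ is a cytokine that T cells and natural killer cells release. Its receptor, IFNGR1 with IFNGR2, activates the kinases JAK1 and JAK2, which phosphorylate STAT transcription factors. STAT dimers bind gamma-activated sites in DNA and switch on a first set of genes, among them the transcription factor IRF1, which in turn acts through interferon-stimulated response elements. In melanoma cells the pathway is known for raising antigen presentation, ligands of inhibitory receptors on T cells, and enzymes that deplete tryptophan.

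The untreated libraries held 16317188 to 18812341 counts in genes and the treated ones 16853253 to 21825274, with 21835 to 23365 genes detected in each. All 9 markers of melanoma cells were expressed above 1 CPM (gene counts scaled to library size by the TMM method), and their summed level was 6886 to 6917 CPM untreated and 6378 to 6807 CPM treated. PMEL, which forms the fibrils of the melanosome, led them. The 11 leukocyte markers summed to 0.104 to 0.481 CPM untreated and 0.179 to 0.661 CPM treated, and PTPRC, CD3D, GZMB and TYROBP had no count in any of the 6 libraries. Summed fibroblast markers were 19.4 to 20.2 CPM and 15.6 to 18.0 CPM, endothelial markers 39.7 to 42.7 CPM and 24.1 to 30.1 CPM, and epithelial markers 399 to 402 CPM and 321 to 365 CPM, untreated and treated in turn. Most of the epithelial sum was 1 gene, CDH1, at a mean of 353 CPM over the 6 libraries, and 3 of these 7 markers were above 1 CPM. The nuclear RNA MALAT1 took 1.75 to 1.85% of counts untreated, and 2.23%, 2.27% and 1.85% in the 3 treated libraries. The part of these shifts in the results was not tested.

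A gene is called here when its Benjamini-Hochberg adjusted p, from the quasi-likelihood test of edgeR over all 15810 genes tested, is below 0.05. After treatment 1504 genes were called higher, or 9.51%, and 1386 lower, or 8.77%, which together is 18.3% of the genes tested. Counts of called members of the gene lists below stand against these shares. In 33.1% of the genes tested the 3 libraries of each group did not overlap. The rises were the larger changes: 376 genes, or 2.38%, rose by at least 2-fold and 172 by at least 4-fold, against 112, or 0.708%, and 24 that fell as far. The median log2 fold change was 0.50 among the genes called higher, -0.29 among those called lower, and 0.00074 over all genes tested. Summed over genes, those called higher gained 53881 CPM. MALAT1 was called at a log2 fold change of 0.26, but its groups overlapped, at 17333, 18228 and 17232 CPM against 22620, 22634 and 18077 CPM. The share called depended on level: 7.45% of genes with a mean below 5 CPM, 18.1% of those from 5 to 50 CPM and 31.7% of those above.

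**Figure D1:**
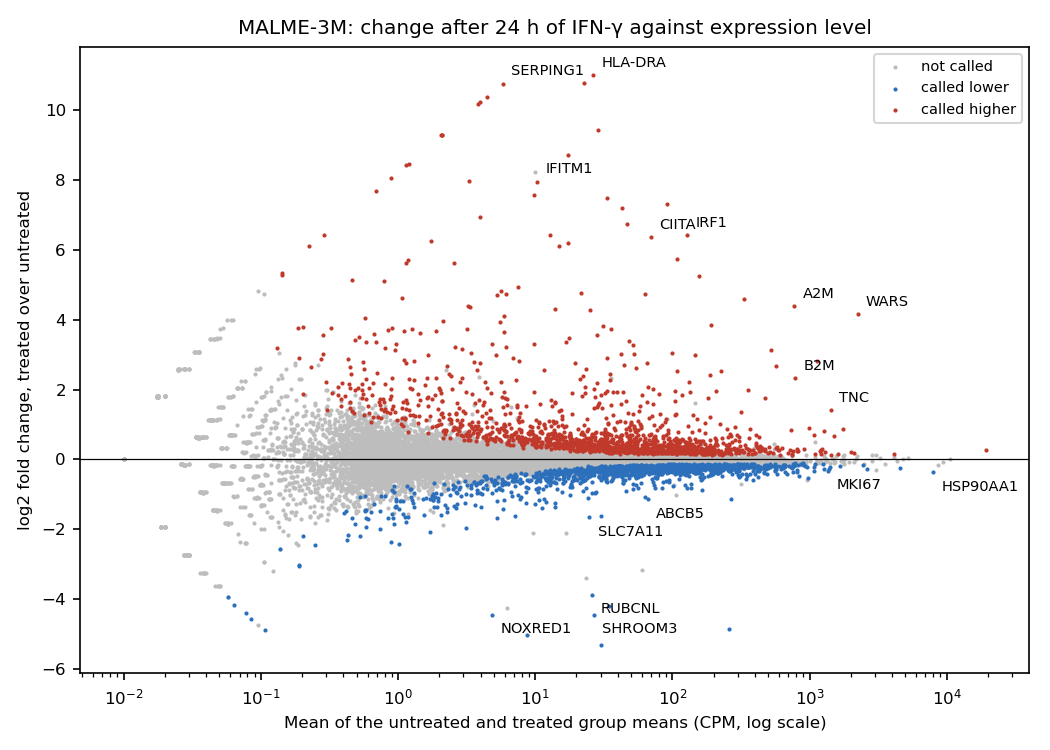
Log2 fold change of each gene (treated over untreated MALME-3M cells, 3 libraries each) against the mean of the 2 group means in CPM on a log axis. HLA-DRA is the highest called rise (red), WARS at 4.15 has the largest gain in CPM, and most called falls (blue) lie close to 0, with SHROOM3 and NOXRED1 at -4.45 among the few steep ones.

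The receptor that carries the signal kept its transcript level within error, while the kinase JAK2 and most STAT and IRF factors rose. IFNGR1 was at 35.1, 33.0 and 33.9 CPM untreated and 33.5, 32.6 and 31.9 CPM treated, a log2 fold change of -0.06 ± 0.07 (SE; edgeR adjusted p = 0.648). IFNGR2 (log2 fold change -0.08) and JAK1 (-0.11) also missed the threshold. JAK2 rose from 31.7, 35.4 and 35.8 CPM to 54.6, 57.2 and 63.1 CPM, with no overlap (0.76 ± 0.08, adjusted p = 9.1e-07). Of the 7 STAT genes 6 rose, with a median log2 fold change of 1.16: STAT2 by 1.84, STAT3 by 1.16, STAT6 by 0.42 and STAT5A by 0.31. The call of STAT5A was lost without any of 4 libraries, with adjusted p up to 0.0891, and STAT5A turned to -0.27 in the transcript estimates. STAT5B stayed at -0.02 and missed the threshold. STAT4 was called at 1.99, but its highest treated library held 1.12 CPM, and the call was lost without untreated library 2 or treated library 2.

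Among 15 interferon regulatory factors and their partners, 12 rose and none fell, with a median log2 fold change of 2.06. IRF1 went from 3.55, 2.83 and 2.45 CPM to 235, 235 and 289 CPM, a log2 fold change of 6.43 ± 0.12 (edgeR adjusted p = 3.4e-18). The lowest treated library was far above every untreated one. IRF2, which binds the same elements as IRF1, was already at 58.6 ± 5.36 CPM (SD) and reached 89.2 ± 2.56 CPM (0.61). BATF2, a basic leucine zipper factor that partners IRF1, rose from 0.361, 0.543 and 0.468 CPM to 33.4, 31.1 and 38.2 CPM (6.21), and BATF3 rose by 4.74. IRF9, the DNA-binding subunit that partners STAT proteins, rose by 3.69 at low levels, from 0.147 to 2.03 CPM, and by 4.40 without untreated library 3. IRF8 had 1 count in the untreated libraries together and 55 treated, a ratio of 47.8 with a 95% interval of 8.23 to 1923 that covers counting error only. The 1 count lay in untreated library 3, and without it the fitted log2 fold change of IRF8 went from 5.15 to 7.09.

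The promoter of IRF1 is shown because the letters of a gamma-activated site stand in it. Motifs were searched on both strands of 300 bases per gene, 250 before to 50 after the start in the RefSeq promoter table (GRCh38.p14). The STAT-type motif is TTCNNNGAA, held by 6.37% of the 10306 tested genes with a promoter in that table. In IRF1, on the minus strand, it begins at position -124 from the start, and capitals mark the match in the stretch printed, chr5:132490849-132490937.
IRF1: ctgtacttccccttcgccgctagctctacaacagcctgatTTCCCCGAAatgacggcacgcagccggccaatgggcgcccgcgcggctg
A match is a description of these letters and no evidence of binding.

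Of 13 feedback inhibitors of the pathway, 4 rose and 3 fell. Only 2 fell when any library other than treated library 3 was left out, and 2 rose and 2 fell in the transcript estimates. SOCS3, which blocks JAK kinases, rose from 16.4, 17.6 and 15.3 CPM to 59.5, 61.9 and 65.1 CPM (log2 fold change 1.92 ± 0.09, edgeR adjusted p = 2.3e-12). SOCS1, the closest inhibitor of the IFN-γ receptor, was near the limit of detection, at 0.118 ± 0.107 CPM untreated and 1.24 ± 0.719 CPM treated. Its log2 fold change of 3.38 moved to 4.34 without untreated library 1 and to 2.75 without treated library 3. SOCS2, an inhibitor of growth hormone signalling, fell from 13.8 to 7.25 CPM (-0.93), and the 3 libraries of each group did not overlap. USP18, which removes ISG15 from proteins and dampens the receptor of type I interferon, rose by 0.44.

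Class II genes of the major histocompatibility complex (MHC), which present peptides to CD4+ T cells and are normally limited to professional antigen-presenting cells, rose from near absence and had the highest median of the lists examined. Of 17 genes tested 15 rose and none fell, with a median log2 fold change of 6.36, or 5.31 with 5 genes of at most 3 untreated counts set to their lower bound. HLA-DRA, the shared alpha chain, had 1 count in the 3 untreated libraries together and 50.1, 51.1 and 56.8 CPM in the treated ones. The ratio was 2775, with a 95% interval of 498 to 109650. CIITA, the coactivator that class II promoters depend on, rose from 1.98, 1.81 and 1.25 CPM to 134, 120 and 157 CPM (6.36 ± 0.15, edgeR adjusted p = 1.2e-16). HLA-DQB1 went from 0.120, 0 and 0.104 CPM to 56.1, 55.5 and 61.7 CPM (9.45), and HLA-DPB1 from 0.0776 ± 0.0374 CPM to 34.8 ± 5.32 CPM (8.71). HLA-DOA had no untreated count and was at least 134-fold higher, against a floor of 3 counts over the untreated group.

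The loading machinery of class II rose with the chains. CD74, the invariant chain that guards the groove, went from 28.3, 24.4 and 26.8 CPM to 625, 656 and 651 CPM (4.61 ± 0.09). HLA-DMB and HLA-DMA, which exchange the placeholder peptide, rose by 4.76 and 4.31, and CTSS, the protease that trims CD74, by 4.40 from 0.293 CPM. Of the 3 subunits that anchor CIITA on DNA, RFX5 rose by 0.97, from 40.3 to 78.8 CPM. RFXAP (0.12) and RFXANK (0.20) missed the threshold. HLA-DRB1, HLA-DRB5 and the other chains share long stretches of sequence and differ between people from the reference, so reads may have been split between them or lost.

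**Figure D2:**
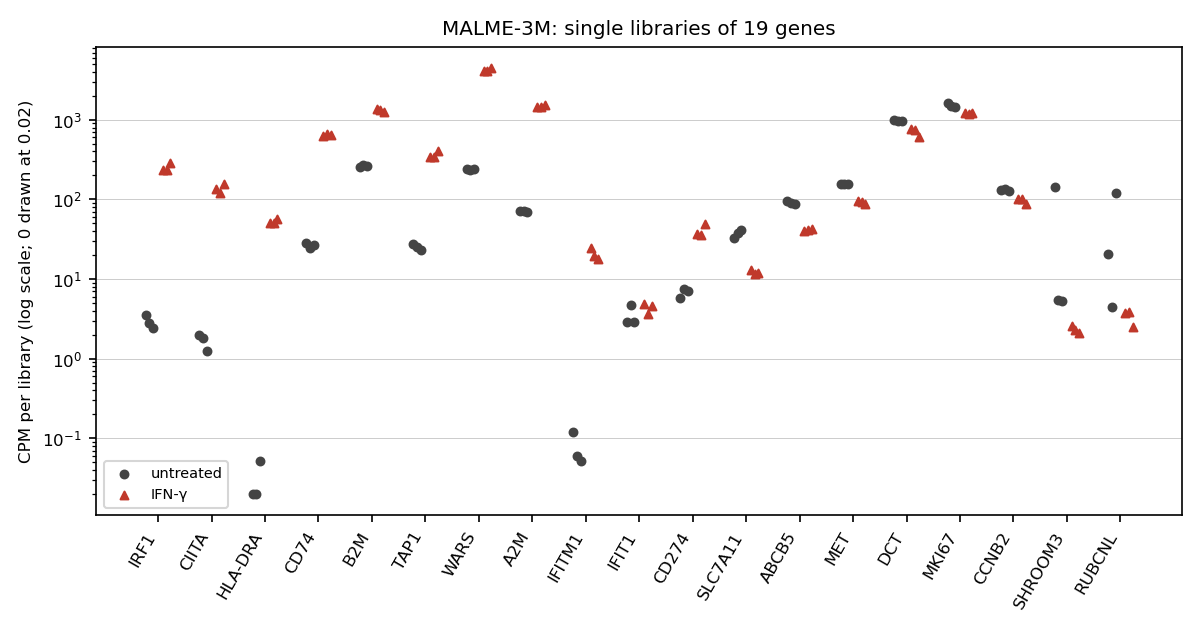
CPM of 19 genes in each untreated (grey circles) and treated (red triangles) MALME-3M library on a log axis, with 0 drawn at 0.02. Groups are apart for the induced genes, IFIT1 overlaps, and SHROOM3 and RUBCNL have 1 untreated library far above the others.

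Class I genes, which present peptides to CD8+ T cells, started high and rose less. All 9 tested rose, with a median log2 fold change of 1.97. HLA-E, whose product binds the inhibitory receptor NKG2A, rose from 154 ± 5.35 CPM to 990 ± 29.2 CPM (2.68). B2M, the light chain, rose from 253, 271 and 262 CPM to 1353, 1315 and 1268 CPM (2.32 ± 0.05). NLRC5, the class I counterpart of CIITA, had the largest rise of this list, from 4.22 ± 0.972 CPM to 58.7 ± 6.47 CPM (3.81, edgeR adjusted p = 8.5e-14).

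The supply of peptides to class I rose in most steps. Of 11 genes for transport, trimming and loading 8 rose and 1 fell. TAP1 carries peptides into the endoplasmic reticulum as a heterodimer, and it went from 27.2, 25.3 and 23.2 CPM to 341, 340 and 400 CPM (3.84 ± 0.08), and its partner TAP2 rose by 1.89. The bridging protein TAPBP rose by 1.27, and the trimming enzyme ERAP1 by 0.88. ERAP2, also a trimming enzyme, rose from 14.7 to 41.5 CPM. Among the chaperones of the pathway CALR was called at 0.14, a call lost with both other scalings and without any of 4 libraries (edgeR adjusted p up to 0.285). CANX fell by 0.21 on the log2 scale, and PDIA3 (0.13) missed the threshold. The 3 immunoproteasome subunits rose: PSMB8 by 1.86, PSMB9 by 2.70 and PSMB10 by 3.31. The subunits they displace were within error: PSMB5 was at 42.0, 38.6 and 40.3 CPM untreated and 37.4, 40.7 and 46.7 CPM treated (0.05), PSMB6 at 0.03 and PSMB7 at 0.08. PSME1 and PSME2, which build the proteasome activator, rose by 1.35 and 1.77. TAP1 and PSMB9 lie head to head and overlap in the annotation, so reads between them may have been assigned to either.

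The promoter of TAP1 is shown because it holds the IRF-type motif GAAANNGAA, the core of an interferon-stimulated response element, which 6.65% of all promoters searched hold. There are 2 matches that overlap, the first at position -133, and they read as the reverse complement on the strand of the gene (minus strand, chr6:32853783-32853877).
TAP1: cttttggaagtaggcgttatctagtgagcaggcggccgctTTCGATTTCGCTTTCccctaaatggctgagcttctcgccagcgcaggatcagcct
Of the 6 immunoproteasome and activator genes 4 hold this motif.

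All 8 interferon-inducible GTPases tested rose, with a median log2 fold change of 5.51, or 4.92 with 2 genes at their lower bound. These proteins attack the membranes of intracellular pathogens. GBP1 rose from 4.15, 3.62 and 3.96 CPM to 199, 183 and 250 CPM (5.75 ± 0.14) and GBP4 from 0.586 to 84.7 CPM (7.19). GBP3 was already at 41.8 CPM and rose by 1.25. GBP5 and GBP7 had no untreated count, and were at least 23.8-fold and 72.4-fold higher. GBP genes are close copies of each other, so reads may have been shared among them. MX1, which traps viral nucleocapsids, rose from 12.7, 11.8 and 11.3 CPM to 56.5, 53.6 and 63.2 CPM (2.27).

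The antiviral genes best known from type I interferon moved unevenly. Of 11 OAS, IFIT and IFITM genes 9 rose, with a median log2 fold change of 1.59. IFITM1, a membrane protein that blocks virus entry, went from 0.120, 0.0603 and 0.0521 CPM to 24.5, 19.4 and 17.9 CPM (7.95 ± 0.32, edgeR adjusted p = 6.1e-12). IFIT3 and OAS2 rose by 3.01 and 3.03, IFIT2 by 1.59, OAS1 by 1.03 and OAS3 by only 0.32. IFIT1, which binds uncapped viral RNA, was at 2.89, 4.76 and 2.92 CPM untreated and 4.93, 3.65 and 4.58 CPM treated. The groups overlapped, and its log2 fold change was 0.32 ± 0.24 (adjusted p = 0.425).

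Of 20 other antiviral effectors 19 rose, with a median log2 fold change of 1.24. IFI44L went from 0.481, 0.181 and 0.416 CPM to 67.1, 63.1 and 70.3 CPM (7.50 ± 0.17), and EPSTI1 from 0.0949 to 5.04 CPM (5.63). BST2, which tethers budding virus, rose from 46.5 ± 2.53 CPM to 218 ± 6.10 CPM (2.23). Among 14 sensors of nucleic acid 9 rose: the cytosolic DNA sensor AIM2 from 0.428 to 29.4 CPM (6.11), the RNA sensor IFIH1 by 1.89, and its relative DDX58 by only 0.44, a call lost without any of 4 libraries (edgeR adjusted p up to 0.164). ISG15, the ubiquitin-like modifier, rose by 2.83 and its activating enzyme UBA7 by 2.19, while the ligase HERC5 (-0.21) missed the threshold. In the nuclear body list 5 of 8 rose, among them PML by 1.17 and SP100 by 1.26. Of 18 TRIM genes 10 rose and 1 fell, or 2 without treated library 1, with TRIM22 at 2.62 and TRIM21 at 1.84. PARP14, PARP9 and DTX3L, which lie close together on chromosome 3, rose by 2.00, 1.94 and 1.96. The calls of PARP14, TRIM21 and OAS3 were lost in the transcript estimates.

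The promoters of GBP1, IFI44L and IFIT1 are shown because all hold the IRF-type motif although IFIT1 was not called. The first of the 2 matches in GBP1 begins at position -126 (minus strand, chr1:89065209-89065374); the other lies past the start and outside the stretch printed. In IFI44L the first begins at -164 (plus strand, chr1:78620244-78620423), and both matches lie in a repeated block. In IFIT1 the first begins at -115 (plus strand, chr10:89392468-89392569). Capitals mark the matches on either strand.
GBP1: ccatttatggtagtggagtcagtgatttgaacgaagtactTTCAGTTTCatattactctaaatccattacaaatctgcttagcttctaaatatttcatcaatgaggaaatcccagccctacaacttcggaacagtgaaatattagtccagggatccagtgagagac
IFI44L: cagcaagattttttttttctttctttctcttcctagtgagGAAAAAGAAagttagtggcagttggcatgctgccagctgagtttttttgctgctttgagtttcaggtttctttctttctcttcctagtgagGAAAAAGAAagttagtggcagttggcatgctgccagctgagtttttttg
IFIT1: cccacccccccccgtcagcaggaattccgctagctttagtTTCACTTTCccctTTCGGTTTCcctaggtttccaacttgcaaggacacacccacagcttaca
The motif stood in 6 of 7 OAS, IFIT and IFITM promoters searched and in 12 of 19 of the other antiviral effectors.

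Across all genes the share of promoters with the IRF-type motif was higher in the larger rises. It was 5.84% in genes not called, 7.96% in genes that rose by less than 2-fold, 26.9% from 2-fold to 4-fold, 32.8% from 4-fold to 16-fold and 43.8% at 16-fold or more, where 32 promoters were searched. The STAT-type motif went from 6.29% in genes not called to 7.01%, 10%, 16.4% and 21.9% over the same steps. In genes called lower the shares were 6.56% and 4.92%. These shares describe letters in a fixed window, and no test was made of them.

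**Figure D3:**
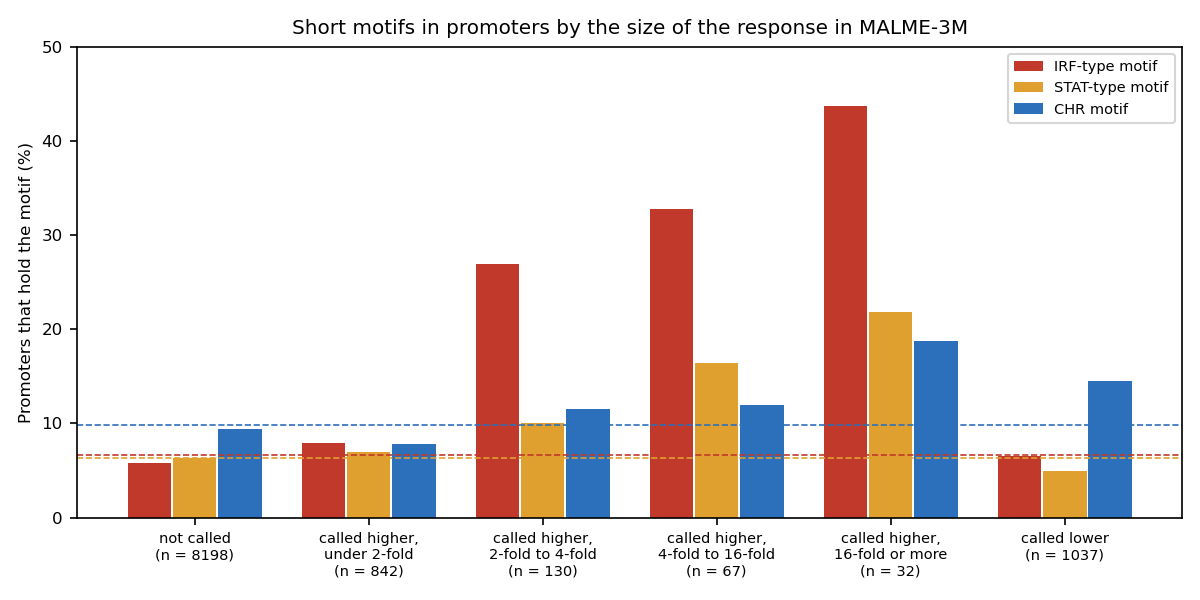
Percent of 300-base promoters that hold each of 3 motifs, by the size of the response in MALME-3M, with dashed lines at the share over all promoters searched. The IRF-type motif goes from 5.84% of genes not called to 43.8% of genes that rose by 16-fold or more, and the CHR motif stands at 14.5% in genes called lower.

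Chemokines that draw T cells through the receptor CXCR3 appeared from near absence. CXCL9 had 1 count untreated and 7.09, 5.39 and 7.04 CPM treated, a ratio of 339 with a 95% interval of 60.5 to 13431. CXCL10 had no untreated count and 5.23, 2.29 and 5.07 CPM treated, at least 73.4-fold higher. CXCL11 remained low at 0.120, 0.281 and 0.897 CPM treated, and its 28 counts make it at least 7.56-fold higher. Treated library 3 held most of them, and without it the fitted log2 fold change of CXCL11 went from 6.11 to 4.99. CXCL1 (0.25) and CXCL8 (0.72), which draw neutrophils, missed the threshold. The gene ART3 overlaps this cluster, and its own rise of 3.50, from 0.0749 to 0.949 CPM, may hold reads of its neighbours, since the strand setting of the counting is unknown here.

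Among 28 cytokines and receptors 9 rose and 2 fell, or 1 without untreated library 1 or treated library 3. IL18BP, a decoy that neutralizes IL-18, rose from 5.02 ± 0.362 CPM to 33.8 ± 2.66 CPM (log2 fold change 2.75). CSF1, the growth factor of macrophages, rose from 2.95, 4.28 and 2.76 CPM to 20.7, 17.0 and 21.3 CPM (2.57 ± 0.16, edgeR adjusted p = 4.2e-10). IL15, which sustains T cells and natural killer cells, rose by 2.84 from 0.256 CPM, or by 3.63 without untreated library 3. Its presenting receptor IL15RA rose by 4.63, or by 5.80 without untreated library 3. IL12RB1 rose by 3.72, IL4R by 0.94 and LIF by 0.42, while IL6R fell by 0.26 on the log2 scale. IL15, IL12RB1, IL4R and LIF were not called in the transcript estimates. CCR1, a chemokine receptor outside these counts, fell from 15.9, 15.9 and 16.7 CPM to 4.87, 6.04 and 7.58 CPM (-1.38 ± 0.15).

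Checkpoint ligands and other inhibitory ligands rose in 8 of 13 cases tested and fell in none, or in 1 without untreated library 1. CD274, which encodes PD-L1, went from 5.77, 7.48 and 7.03 CPM to 36.5, 36.2 and 48.8 CPM (2.58 ± 0.14). Its neighbour PDCD1LG2, or PD-L2, rose by 3.20 from 0.147 CPM, and by 3.91 without untreated library 3. CD47, the signal that holds off phagocytes, rose from 58.7, 65.3 and 59.5 CPM to 151, 140 and 163 CPM (1.31 ± 0.07, edgeR adjusted p = 2.5e-11), and CEACAM1 rose from 29.6 to 86.0 CPM (1.54). Of 6 ligands that activate natural killer cells only MICB rose (0.64), while MICA stayed at -0.02 and missed the threshold. In the TNF family 9 of 16 rose and 1 fell. Only 7 rose without untreated library 2 or treated library 3 or with upper-quartile scaling, and 7 of 15 in the transcript estimates. TNFSF10, the death ligand TRAIL, rose by 3.75, or by 5.15 without untreated library 3. Its decoy receptor TNFRSF10D fell by 0.83 on the log2 scale. NGFR, a marker of neural crest-like melanoma cells in the same family, rose by 2.32 at low levels, from 0.543 ± 0.157 to 2.70 ± 0.970 CPM. Of 24 dedifferentiation and neural crest genes tested 4 rose, 1 fell and 19 were not called, with a median of -0.03.

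Among 26 cell death genes 11 rose and 1 fell, or 2 without treated library 3. XAF1, an antagonist of caspase inhibitors, rose from 4.94 to 66.3 CPM (log2 fold change 3.74). MLKL and GSDMD, which open pores in dying cells, rose by 1.34 and 0.97. CASP8 and CASP1 rose by 0.45 and 0.43. BAX (-0.18) missed the threshold.

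The gene with the largest gain in counts was WARS, the tryptophanyl-tRNA synthetase, which took 7.44% of all CPM gained. It was at 240, 236 and 239 CPM untreated and 4142, 4155 and 4437 CPM treated (log2 fold change 4.15 ± 0.05). In the estimated counts per transcript, WARS-203, which starts at chromosome 14 position 100376335, held 70.9% of the annotated WARS total untreated and 33.6% treated. It rose from 1332, 1207 and 1431 to 5122, 5982 and 6580 estimated counts. WARS-238, which starts downstream at 100375347, rose from 0, 75.7 and 73.7 to 4244, 5092 and 6111 estimated counts, and from 2.67% to 29.3% of the total. WARS-201, at 100375608, rose from 11.1, 0 and 71.2 to 2103, 2435 and 2813 estimated counts. Such shares are estimates from reads that several transcripts have in common.

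Transcripts of CIITA can begin at several promoters. CIITA-201, which starts at chromosome 16 position 10877198, held 36.9% of its annotated estimated counts untreated and 41.2% treated, and rose from 12.8, 5.75 and 3.67 to 397, 495 and 539. CIITA-215, from the upstream start at 10866260, rose from 1.13, 3.07 and 0.882 to 96.1, 112 and 145. CIITA-204, a form with a retained intron that starts at 10877210, had 0 estimated counts untreated and held 19.5% of the treated total. CIITA-212, which starts at 10878969, held 15.6% of the treated total and CIITA-215 held 8.43% untreated and 10.2% treated. These are estimates of transcripts that share reads.

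Secreted and surface genes outside the immune lists held some of the largest gains. A2M, a protease trap of plasma, rose from 71.6, 70.8 and 68.8 CPM to 1442, 1451 and 1538 CPM (log2 fold change 4.39 ± 0.05, edgeR adjusted p = 1.2e-21). TNC, a matrix glycoprotein of invasive melanoma, rose from 803, 785 and 765 CPM to 1972, 1993 and 2248 CPM (1.40). FN1 (fibronectin) rose by 0.66 and COL4A2 by 0.63, while SPARC fell by 0.37 and BCAN by 0.68 on the log2 scale. Over the 25 matrix glycoproteins and proteoglycans 7 rose and 9 fell, with a median of 0.03. All 5 apolipoproteins L rose, APOL1 from 21.5, 22.1 and 21.3 CPM to 177, 177 and 179 CPM (3.04), APOL6 by 2.99 and APOL3 by 3.65; APOL4 had no untreated count and was at least 139-fold higher. In the classical complement pathway C1R rose by 3.38 and C1S by 4.74, and SERPING1, which inhibits both proteases, had no untreated count and was at least 203-fold higher. C4A, a near-identical copy of C4B, had 2 counts untreated and 93 treated.

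ICAM1, the adhesion receptor for lymphocytes, rose from 68.3, 63.4 and 68.6 CPM to 385, 366 and 397 CPM (log2 fold change 2.52 ± 0.05). Its promoter is shown because it holds the STAT-type motif at position -75 (plus strand, chr19:10271005-10271093).
ICAM1: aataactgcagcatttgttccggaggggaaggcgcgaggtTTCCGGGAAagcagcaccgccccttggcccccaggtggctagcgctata
LRRTM2, a synaptic adhesion protein, had 3 counts untreated and 8.11, 6.98 and 8.52 CPM treated, a ratio of 137 with a 95% interval of 46.7 to 669. Its fitted log2 fold change of 6.95 became 7.74 without untreated library 3. The guidance receptor UNC5C rose by 1.79, from 12.3 ± 2.25 to 42.5 ± 1.68 CPM. SEMA6D and SLIT3 fell by 1.16 and 0.74 on the log2 scale, and of 28 axon guidance genes 8 rose and 7 fell. BANCR, a long noncoding RNA known from BRAF-driven melanoma, had no untreated count and 2.94, 2.01 and 2.15 CPM treated, at least 41.4-fold higher.

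Some large rises lay side by side on the chromosomes. There were 10 runs of at least 3 tested genes in a row that all rose by 2-fold or more, with 40 genes in all, and no such run of falls. The longest held 6 genes each: GBP3, GBP1, GBP2, GBP7, GBP4 and GBP5 at chr1:89006666-89272804, and TAP2, PSMB8, PSMB9, TAP1, HLA-DMB and HLA-DMA at chr6:32821833-32969094 (GENCODE 29 on GRCh38). The runs PSME2, IRF9 and REC8 on chromosome 14 and PATL2, B2M and TRIM69 on chromosome 15 hold a highly expressed member beside lower ones, and reads that pass the end of one gene may count for the next. REC8 rose by 3.69, or by 4.48 without untreated library 3. In the MHC region from HLA-F to DAXX (chr6:29722775-33323016), 27 of 104 tested genes rose and 5 fell, where 9.51% and 8.77% of all genes tested did.

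**Figure D4:**
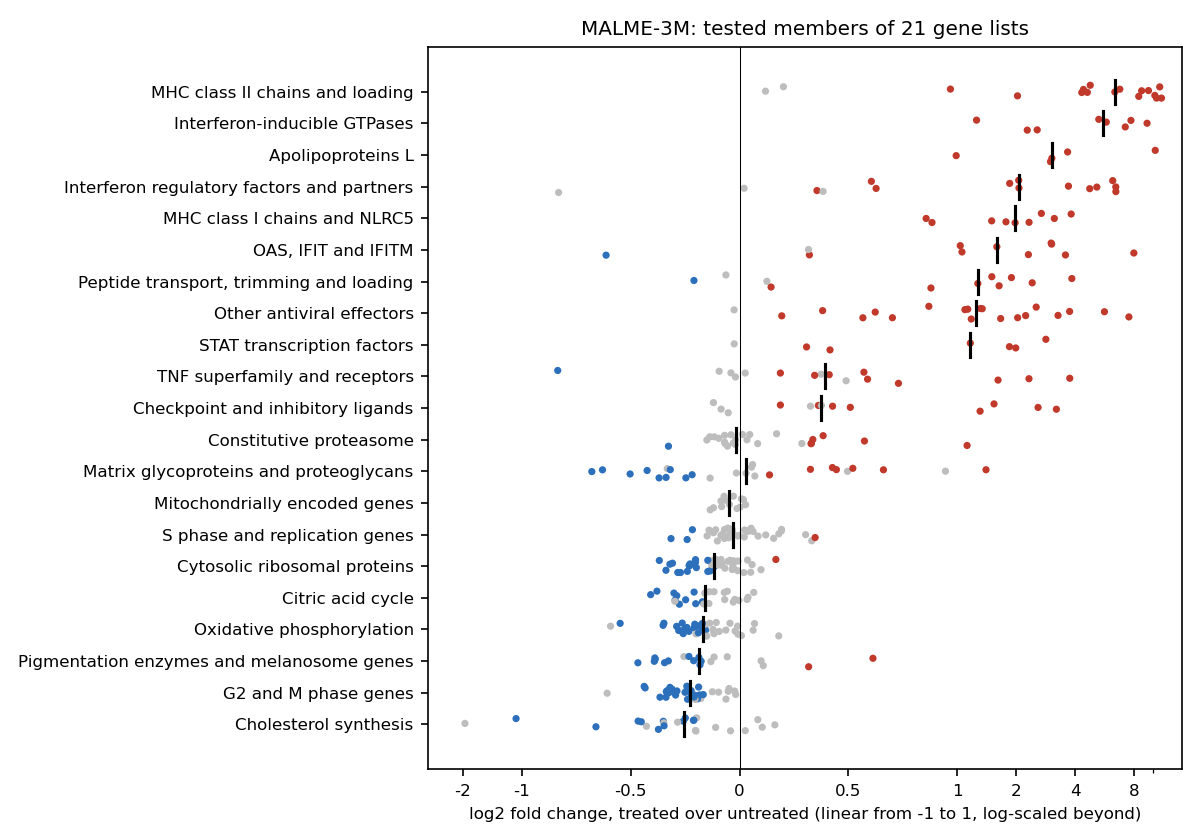
Log2 fold change in MALME-3M of each tested member of 21 gene lists, called higher (red), lower (blue) or not called (grey), with the list median as a black bar; the axis is linear from -1 to 1 and log-scaled beyond. Medians run from 6.36 in MHC class II to -0.25 in cholesterol synthesis. Called falls in the lower lists were less than 2-fold, except that of DHCR7 in cholesterol synthesis at -1.07. The lowest member of that list, at -1.95, was not called.

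Genes of mitosis fell together by small amounts. Of 40 genes of the G2 and M phases 30 fell and none rose, with a median log2 fold change of -0.23. Over all genes tested 8.77% fell and the median was 0.00074. Among the 4419 genes tested with a mean of 50 CPM or more, 810 fell. MKI67, the proliferation antigen, went from 1617, 1486 and 1462 CPM to 1234, 1184 and 1226 CPM (-0.32 ± 0.04, edgeR adjusted p = 2.6e-05). CENPF, a kinetochore protein, went from 1197, 1193 and 1175 CPM to 991, 972 and 894 CPM (-0.32). CCNB2, a cyclin of mitosis, fell from 130 ± 3.39 to 96.2 ± 8.26 CPM (-0.44), and the kinase PLK1 from 46.4, 44.3 and 43.9 CPM to 37.9, 33.2 and 36.9 CPM (-0.32). CDC20 (-0.18), AURKA (-0.12) and AURKB (-0.02) missed the threshold. Of 36 genes of S phase only 3 fell, with a median of -0.03, and 1, E2F1, was called higher (0.35). That call was lost without untreated library 2 or 3, without treated library 1, 2 or 3, and in the transcript estimates. PCNA stayed at 317, 319 and 315 CPM and then 318, 308 and 305 CPM. In SK-MEL-5 the median of the mitotic list was -0.06, and 7 of its genes fell further in MALME-3M. In bulk RNA fewer cells of a kind and less RNA per cell cannot be told apart. The count of mitotic genes that fell was 13 of 40 in the transcript estimates.

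The CHR motif TTTGAA, an element near the start of many mitotic genes, stood in 23 of 34 promoters of the G2 and M phase list, or 67.6%, in 3.13% of the S phase list and in 9.83% of all promoters searched. The promoters of MKI67 and PLK1 show it in capitals; the first match begins at position -47 in MKI67 (minus strand, chr10:128126424-128126510) and at -29 in PLK1 (plus strand, chr16:23678820-23678888).
MKI67: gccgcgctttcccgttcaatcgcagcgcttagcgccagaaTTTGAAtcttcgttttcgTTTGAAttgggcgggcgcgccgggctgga
PLK1: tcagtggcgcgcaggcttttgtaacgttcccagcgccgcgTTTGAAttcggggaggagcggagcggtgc
Genes called lower held it in 14.5% of promoters, and genes that rose by 16-fold or more in 18.8%.

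Lists of metabolic genes differed from each other. Over all genes tested 9.51% rose and 8.77% fell, and 10.5% of the amino acid transporters rose. In fatty acid synthesis and desaturation 5 of 19 rose and 3 fell (median 0.05), and of 19 amino acid transporters 2 rose and 5 fell (median 0.02). In cholesterol synthesis 11 of 24 fell and none rose (median -0.25). DHCR7, the last reductase of the pathway, had the largest fall called (-1.07), which was lost without untreated library 3, treated library 1 or treated library 3, with edgeR adjusted p up to 0.304. The count for Cholesterol synthesis was 7 without untreated library 3, and none of the 24 was called in the transcript estimates. The CCAAT motif stood in 15 of 17 promoters of this list and in 36.6% of all promoters searched. Other lists also held it often: 80% of ATF4 and amino acid stress, 76.9% of MHC class II and 73.5% of G2 and M phase promoters.

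In nuclear-encoded oxidative phosphorylation 18 of 38 fell and none rose (median -0.17), among them SDHC by 0.55 and UQCRB by 0.35 on the log2 scale. Over all genes tested 8.77% fell, and 810 of the 4419 with a mean of 50 CPM or more did. The 13 genes encoded by mitochondrial DNA had no call in either direction. The count for Oxidative phosphorylation fell to 11 without untreated library 1 and to 6 of 42 in the transcript estimates. In the citric acid cycle 10 of 25 fell, MDH1 from 246, 246 and 234 CPM to 192, 190 and 176 CPM (-0.38). Without untreated library 2 the count for the Citric acid cycle was 6. Of 45 cytosolic ribosomal protein genes 18 fell and 1, RPS9, was called higher, which neither other scaling called, with a median of -0.12; these genes have many processed copies, and without untreated library 1 the count for Cytosolic ribosomal proteins was 12, and 8 in the transcript estimates. HSP90AA1, the inducible heat shock protein 90, lost the most CPM of all genes, from 9531, 8630 and 8635 CPM to 6971, 7071 and 6755 CPM (-0.37 ± 0.06), and was not called in the transcript estimates.

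Single metabolic genes moved further than their lists. SLC7A11, the cystine importer that feeds glutathione synthesis, fell from 33.0, 37.8 and 41.7 CPM to 12.9, 11.4 and 11.8 CPM (-1.65 ± 0.09, edgeR adjusted p = 4.9e-11), and its heavy chain SLC3A2 (0.09) missed the threshold. GPX4, which removes lipid peroxides, fell by 0.35 and the iron importer TFRC by 0.30 on the log2 scale. SAT1, which acetylates polyamines, rose from 527 ± 36.7 to 935 ± 70.0 CPM (0.83). HK2, the first enzyme of glycolysis, rose from 291, 289 and 280 CPM to 434, 429 and 460 CPM (0.62), while LDHB fell by 0.28. PHGDH, the entry to serine synthesis, fell by 0.53 and FASN, the fatty acid synthase, by 0.43 on the log2 scale, while SREBF1 rose by 0.78. The calls of SLC7A11 and PHGDH were lost in the transcript estimates.

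Genes of pigment production fell in 11 of 19 cases and rose in 2 (median -0.19). DCT, an enzyme of melanin synthesis, went from 985, 960 and 976 CPM to 761, 742 and 611 CPM (-0.47 ± 0.06). MITF, the master regulator of the lineage, was at 561, 597 and 611 CPM and then 673, 636 and 556 CPM. These groups overlapped, and the log2 fold change of 0.08 missed the threshold (edgeR adjusted p = 0.442). SOX10 was called at 0.21, a call lost without untreated library 2 or 3 or treated library 3. TYR (0.11), TYRP1 (-0.26) and PMEL (-0.06) missed the threshold. Without treated library 2, 7 of the 19 Pigmentation enzymes and melanosome genes were called lower.

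Of 27 receptor tyrosine kinases 6 fell and 3 rose. MET, the receptor of hepatocyte growth factor, fell from 154, 154 and 156 CPM to 96.7, 93.5 and 88.3 CPM (-0.74 ± 0.04, edgeR adjusted p = 2.6e-10), and KIT, the receptor of stem cell factor, from 36.4 ± 2.06 to 19.1 ± 1.82 CPM (-0.93). KDR, also the only endothelial marker above 1 CPM here, fell from 41.1 to 26.2 CPM (-0.65). ERBB3 rose by 0.29, and AXL (0.85) missed the threshold at 1.35 and 2.43 CPM. ABCB5, a transporter linked to drug-tolerant melanoma cells, fell from 95.3, 91.1 and 87.7 CPM to 40.1, 41.3 and 42.3 CPM (-1.15 ± 0.05). Other falls past 2-fold with no overlap, which 33.1% of all genes tested showed, included NPR1 (20.3 to 7.82 CPM), ADAM19 (16.8 to 7.20 CPM) and FAM198B (19.5 to 8.26 CPM). TRPM8 (8.22 to 3.71 CPM) and the noncoding RNA GAPLINC (8.01 to 2.53 CPM) were also among them. KCNAB1 (log2 fold change -1.41), LRRC4 (-1.37) and CORO2B (-1.24) were called lower as well. CD68, a lysosomal protein used as a macrophage marker, fell from 213 ± 2.64 to 116 ± 5.40 CPM (-0.88). KIT, NPR1, FAM198B, GAPLINC, LRRC4 and CORO2B were not called in the transcript estimates.

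Several of the steepest fitted falls rested on single untreated libraries. SHROOM3, a regulator of cell shape, was at 142, 5.49 and 5.31 CPM untreated and 2.58, 2.29 and 2.11 CPM treated. Its log2 fold change of -4.45 became -1.22 without untreated library 1 (edgeR adjusted p = 0.0125), and its call was lost in the transcript estimates, in a robust fit and in DESeq2. NOXRED1 was at 0.782, 26.5 and 0.625 CPM against 0.481, 0.515 and 0.269 CPM, and without untreated library 2 its -4.45 became -0.74 (adjusted p = 0.421). RUBCNL was at 20.4, 4.40 and 120 CPM against 3.73, 3.84 and 2.47 CPM, and -3.88 became -1.90 without untreated library 3. CFD, a protease of the alternative complement pathway, was at 49.1, 1.09 and 0.573 CPM untreated, and -5.02 became -0.69 without untreated library 1 (adjusted p = 0.431). The calls of NOXRED1 and CFD were also lost in the robust fit and in DESeq2, and that of RUBCNL in the robust fit and the transcript estimates. A single library at least 5 times above the next was found in 7 of the 112 genes that fell by 2-fold or more, and in 4 of the 376 that rose as far. The genes concerned differ in which untreated library is high: library 1 in 10 of 21 tested genes, library 2 in 5 and library 3 in 6.

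The response differed from that of SK-MEL-5 in 705 genes, or 4.46% of those tested, by the contrast of the 2 responses in 1 edgeR fit. In 422 the log2 fold change was more positive in MALME-3M and in 283 more negative. Cell line, dose and medium differ together, so their parts cannot be told apart. Of the 17 class II genes 11 responded more in MALME-3M and none less: the list's median log2 fold change was 6.36 here and 2.91 in SK-MEL-5. HLA-DRA, at 1 count untreated in MALME-3M, was at 2.73 ± 0.602 CPM in untreated SK-MEL-5 cells and at 28.9 ± 3.81 CPM after treatment there. BATF3 rose by 4.74 here and by 1.39 there (difference 3.34 ± 0.30, adjusted p = 9.4e-07), and ETV7, an interferon-induced ETS repressor, by 6.44 and 0.65. AIM2 differed by 2.99, GBP2 by 2.44, MX1 by 1.85 and CD47 by 0.91, all larger in MALME-3M.

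Members of several other lists responded less, where the difference was more negative in 283 of all 15810 genes tested. Among these lists were nucleic acid sensing (5 of 14 less, 1 more) and cell death genes (5 of 26 less, 1 more). In nuclear body proteins 3 of 8 responded less and none more. Of the 20 other antiviral effectors 13 responded less in MALME-3M and none more, and so did 6 of 11 OAS, IFIT and IFITM genes, 5 of 7 genes of ISG15 conjugation and 4 of 5 apolipoproteins L. BST2 rose by 2.23 from 46.5 CPM here and by 6.89 from 0.233 CPM in SK-MEL-5 (difference -4.66 ± 0.16, edgeR adjusted p = 2.3e-12). OAS2 started from 9.21 CPM here and 0.616 CPM there, and reached 75.1 and 45.0 CPM (difference -3.14). IFIT1 rose by 3.36 in SK-MEL-5, from 0.888 to 8.86 CPM (difference -3.05), while treated MALME-3M cells had 4.39 CPM. Untreated levels of these 3 genes were higher in MALME-3M than in SK-MEL-5. Among falls, SLC7A11 (difference -1.02), ABCB5 (-0.48), MET (-0.35) and MKI67 (-0.24) fell further in MALME-3M.

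**Figure D5:**
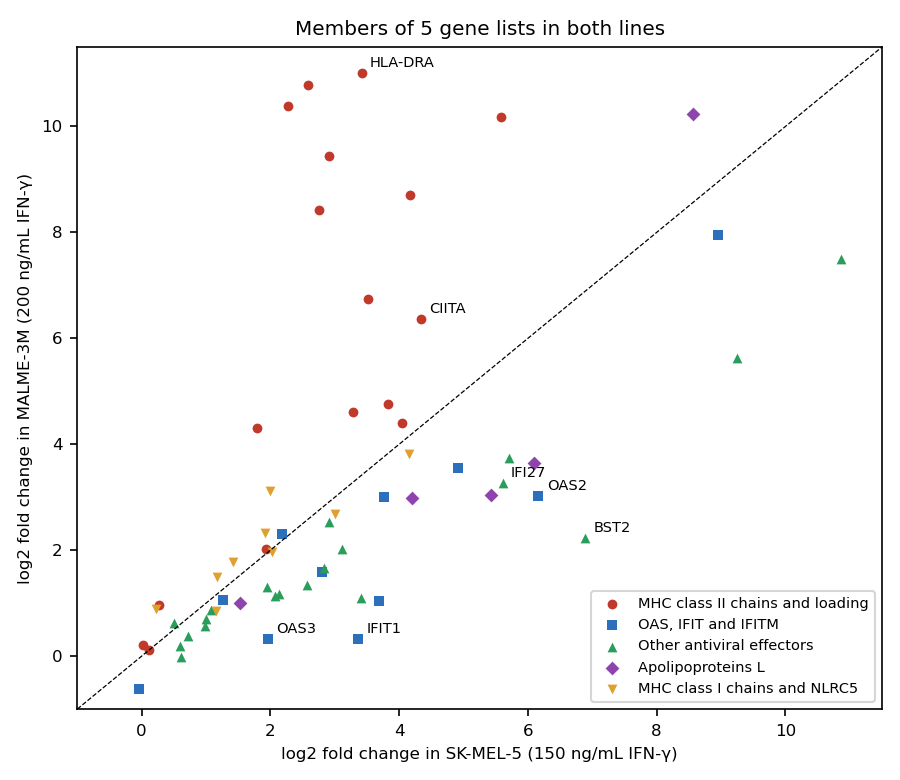
Log2 fold change in MALME-3M (200 ng/mL IFN-γ) against that in SK-MEL-5 (150 ng/mL) for members of 5 gene lists, with a dashed line of equal response. Most class II genes lie above the line and most antiviral genes and apolipoproteins L below it, with BST2 at 2.23 against 6.89.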

How the data were processed

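The authors deposited, per library, a table of whole-number read counts per gene symbol or assembled locus, not normalized, with the summary lines of HTSeq, and a table of transcripts with an estimated count and a TPM value, per the file headers. Trimming with cutadapt, alignment tools STAR and SAMtools, kallisto for transcripts, HTSeq and build hg38 appear in the submitters' processing notes. Versions, annotation, strand setting and use of molecular identifiers were not given in the sources used here. TPM was not used.

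The 5 summary lines were left out; in the MALME-3M libraries reads in no feature came to 0.722 to 0.839 times the gene counts, non-unique alignments to 9.38 to 13.7 times, and ambiguous reads to 4.32% to 4.54% of them. Of 44700 rows, 15810 passed filterByExpr (minimum count 10) and were tested with edgeR 4.0.16 in R 4.3.3: TMM scaling, 1 mean for each of the 4 groups over 12 libraries, the quasi-likelihood F test with 8 residual degrees of freedom, and Benjamini-Hochberg adjustment. CPM use the TMM factors. The script was tested on simulated data. Alternatives were 2 other scalings, other filters, assembled loci left out, the 6 libraries alone, DESeq2 1.42.0, estimated counts summed per gene (rounded), each library left out in turn and, chosen after seeing the data, a robust fit.

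Members and the 69 gene lists were chosen with earlier results of these data known. Set for naming were the 15 largest rises and falls called with no overlap and at least 5 CPM in the higher group. To these came the 5 largest gains and losses of CPM, up to 4 genes per list and fixed pathway genes. The 8 largest differences between lines in each direction were also set. Not all of these genes are printed. Other members of the lists, and the genes of neighbour runs, were named after their values were seen. Genes on the Y chromosome and some other items are not reported here. Intervals (95%, Clopper-Pearson) and floors of 3 counts cover counting error only.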

Additional observations from a re-analysis of the deposited data

Results flagged for a closer look

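The response of 705 genes differed between the 2 lines by the contrast of responses in edgeR. The 8 largest positive and negative differences in log2 fold change (MALME-3M minus SK-MEL-5) by the naming rule follow. Class II genes held 4 of the positive ones: HLA-DRB1 at 8.20, HLA-DRB5 at 8.10, HLA-DRA at 7.58 and HLA-DQB1 at 6.53. HLA-DRB5 had no untreated count in MALME-3M, and HLA-DRA and HLA-DRB1 had 1 count each, so these fitted differences are not exact. Without the library that held it, the MALME-3M log2 fold change became 12.95 for HLA-DRA and went from 10.78 to 12.74 for HLA-DRB1. ETV7 differed by 5.78, the chemokine CXCL9 by 4.80 and SECTM1, a ligand of the T cell protein CD7, by 4.69. In MALME-3M the log2 fold change of CXCL9 went from 7.98 to 9.95 without untreated library 2, and that of SECTM1 from 7.58 to 8.28 without untreated library 1. TRPV4 differed by 4.61, but it missed the threshold in MALME-3M (0.17) and was near 0 CPM in SK-MEL-5.

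Negative differences were -4.66 for BST2, -4.65 for SLC15A3, -3.14 for OAS2, -3.05 for IFIT1 and -3.45 for FBLN7. SLC15A3 rose by 3.30 in MALME-3M and had no untreated count in SK-MEL-5, and FBLN7 was at 0.0148 CPM there untreated. For UGT2A1 (-8.89), XKR7 (-8.80) and MRVI1 (-6.15) the untreated MALME-3M libraries disagreed. UGT2A1 was at 34.1, 7.35 and 5.21 CPM, XKR7 at 0.180, 0.121 and 35.4 CPM, and MRVI1 at 26.8, 1.63 and 147 CPM. MRVI1's own fall of -5.32 in MALME-3M became -3.27 without untreated library 3.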

How the results depend on the processing

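Transcript estimates gave 527 genes higher, 415 lower, 217 at least 2-fold higher, 33 at least 2-fold lower and 137 different between lines; 49.9% to 53.9% of the estimated counts of a MALME-3M library lie in transcripts tied to an annotated gene, and the cause was not tested. With a minimum count of 50, which tests fewer genes, 67 fell by 2-fold or more. Leaving out 1 library gave 1099 to 1287 genes higher, 1013 to 1316 lower, 338 to 375 and 89 to 106 by 2-fold or more, and 531 to 637 different between lines. Reversed in the transcript estimates were DUSP10 (-0.076), MMP16 (0.230), RPS14 (0.120), RUBCNL (0.758) and STAT5A (-0.271). Another 82 named genes lost their call there, among them SLC7A11, KIT, PARP14, HSP90AA1, IL15, IL12RB1, PHGDH, PLK1, ERAP2, USP18 and GAPLINC. SDHC, SEMA6D, MICB, CASP1, ART3, IRF4, KYNU and DDX58 lost theirs there as well. Rises were 52.0% of calls, and 43.9% with upper-quartile scaling. No paired analysis was possible because the labels give no replicate numbers. Counts below about 1 CPM limit the precision of folds of the genes that were near absent untreated.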

Other observations

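Several further gene groups moved by small amounts. Of 17 NF-kappaB subunits and targets 9 rose and none fell, with a median log2 fold change of 0.26 against 0.00074 over all genes tested. The count for NF-kappaB subunits and targets was 5 without untreated library 2 or treated library 3, and 3 in the transcript estimates. BCL3, a nuclear partner of NF-kappaB, rose from 2.08 to 5.48 CPM (1.38), and SOD2, the mitochondrial superoxide dismutase, by 0.40. Of 9 S100 proteins 5 rose, or 3 without untreated library 2 or treated library 3, and none fell: S100A11 went from 38.6 to 59.3 CPM (0.62). Of 25 genes of MAPK output and feedback 7 rose and 2 fell, or 4 and 1 without treated library 2 and 3 and 0 in the transcript estimates, with the phosphatase DUSP4 at 0.26. In the list of melanocyte regulators TFAP2A rose by 0.48, TBX2 by 0.51 and IRF4 by 0.36, while 2 of the 14, KIT and the endothelin receptor EDNRB, fell.

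Stress genes did not move one way. In the list of ATF4 targets and amino acid stress 4 of 22 rose and 6 fell. Only 2 rose without untreated library 1 or 2 or treated library 3. ATF3, a stress-induced repressor, rose from 0.601, 1.02 and 0.781 CPM to 2.94, 3.18 and 2.56 CPM (1.84), and CEBPB from 87.4, 93.1 and 102 CPM to 134, 132 and 131 CPM (0.49), with no overlap in either. PHGDH, PSAT1 and SHMT2, enzymes of serine and glycine synthesis, fell by 0.53, 0.26 and 0.29 on the log2 scale. Of 21 p53 targets 4 fell and 1 was called higher, a call lost without any of 4 libraries, and CDKN1A (-0.19) missed the threshold. Beside WARS, NAMPT, the entry to the NAD salvage pathway, rose from 333 to 518 CPM (0.64), and the kynurenine enzyme KYNU by 0.34.

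Among lysosomal proteases CTSO rose from 14.3 to 39.6 CPM (1.47) and CTSZ from 162 to 247 CPM (0.61), while CTSH fell by 0.29 on the log2 scale, in a list where 7 of 25 rose and 3 fell. Of 21 matrix proteases 7 rose and 5 fell, or 3 without untreated library 3 or treated library 2; ADAM15 rose by 0.72, and PLAUR, the receptor of urokinase, by 0.70. ITGA9, an integrin chain that binds tenascin, rose from 27.7 to 49.3 CPM (0.83). CTSO, CTSH and PLAUR were not called in the transcript estimates. By class of gene, 16 of 266 long intergenic noncoding RNAs rose and 16 fell, and 12 of 297 antisense RNAs moved in each direction, where 9.51% of all genes tested rose and 8.77% fell.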
